A study of Mus musculus with 2 samples.

Results

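The miR-135 genes of the mouse are Mir135b, present as 1 copy, and the copies Mir135a-1 and Mir135a-2. These 3 genes were chosen by name from the gene annotation, out of 1973 annotated genes in each of 2 deposited count tables, and all 3 were found. Their same-strand read counts in these libraries, including the contrast of Mir135b with the Mir135a copies, were already known when they were chosen, so the levels and ratios below are a description and carry no test. Small RNA was sequenced from neural tube, the embryonic tissue that forms brain and spinal cord, of healthy mouse embryos of strain B6NCrl at embryonic day 13.5, with no treatment given in the labels. Each of the 2 libraries was made from pooled male and female embryos, numbered 1 and 2 as biological replicates; the labels give a tissue sample for each and the same donor entry for both. There is no second condition, genotype or time point.

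A miRNA gene is transcribed as a longer RNA that folds into a hairpin, from which a product of about 22 nt can be cut from the 5′ arm (5p) or the 3′ arm (3p). The product pairs with target mRNAs mainly through its seed, bases 2 to 8, so genes with the same seed are grouped as a family. The miR-135 family is known for targeting Apc, a brake on Wnt signalling, and in serotonin neurons the serotonin transporter Slc6a4. Mir135a-2 lies in Rmst, a long noncoding RNA of the developing midbrain and other neural tissue.

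The products are shown here because the sequences decide which reads can be assigned to 1 gene. RefSeq (GRCm38.p6) held a hairpin for all 3 genes, and the mature sequences below are those it lists. The seed is in capitals.
miR-135a-5p: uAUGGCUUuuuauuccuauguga
miR-135a-1-3p: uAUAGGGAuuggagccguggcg
miR-135a-2-3p: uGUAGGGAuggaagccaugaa
miR-135b-3p: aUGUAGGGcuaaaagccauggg

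The 5p product of the Mir135a genes was identical in both copies. Its seed, AUGGCUU, also stands in the Mir135b hairpin, at the same place of the stretch that aligns to miR-135a-5p. The RefSeq table holds 1738 mature entries, with the 3p product of Mir135b but not its 5p product. Among these entries no gene outside the family had a product with this seed, and products not listed were not searched. The 3p products, by contrast, had 3 different seeds, and none of these was found in a gene outside the family either. The seed of miR-135b-3p, UGUAGGG, also stands in miR-135a-2-3p, but starts there 1 base nearer the 5′ end. Over the 21 positions they share, counted from their 5′ ends, the 3p products of Mir135a-1 and Mir135a-2 differed at 6, including A2G in the seed and U10G, G12A, G17A, G20A and C21A after it. A read from the 3p arm can therefore tell the copies apart, while a full-length read of the 5p product cannot.

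The hairpins of Mir135a-2 and Mir135b are shown whole, to set the copy against the paralog, with the 23 bases that align to miR-135a-5p in capitals.
Mir135a-2 hairpin: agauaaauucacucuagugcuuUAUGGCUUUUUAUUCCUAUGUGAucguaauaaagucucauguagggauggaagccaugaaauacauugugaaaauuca
Mir135b hairpin: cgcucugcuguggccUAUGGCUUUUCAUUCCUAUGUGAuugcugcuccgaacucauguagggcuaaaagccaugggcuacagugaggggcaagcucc

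The aligned stretch of Mir135b differed from miR-135a-5p at 1 of its 23 positions, U11C, which lies outside the seed. The longest run common to the Mir135a hairpins was 24 nt and holds the whole 5p product. Between Mir135b and the copies the longest common runs were 14 nt with Mir135a-1 and 13 nt with Mir135a-2. Of the 22-nt windows that tile each hairpin, 3 of 69 in Mir135a-1 and 3 of 79 in Mir135a-2 were found in the other copy, and 0 of 76 in Mir135b were found in any of the 1005 RefSeq hairpins. If 1 mismatch with another member is allowed, 5 of the 76 windows of Mir135b, 7 of 69 in Mir135a-1 and 7 of 79 in Mir135a-2 matched. All of these windows lie on and around the 5p stretch. Aligned end to end, with the 5p stretch included, identity was 67% between the Mir135a hairpins, 67.6% between Mir135a-1 and Mir135b, and 63.3% between Mir135a-2 and Mir135b. The 22-nt windows were searched only in miRNA hairpins, and the listed mature products also in annotated transcripts. The genome sequence was not used here, so copies outside these were not searched.

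**Figure D1:**
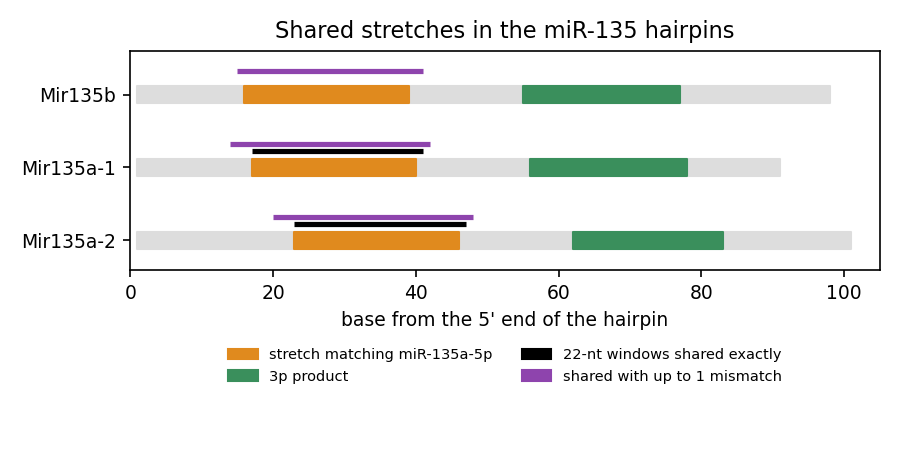
Map of the 3 hairpins (x axis, base from the 5′ end of each hairpin; grey bars, hairpins; orange, the 23 bases that align to miR-135a-5p; green, the 3p product). Black lines span the 22-nt windows found exactly in another miRNA hairpin and purple lines those matching another member with up to 1 mismatch. The exact windows cover the 5p stretch of Mir135a-1 and Mir135a-2 and are absent from Mir135b.

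The 3 genes lie on different chromosomes (GRCm38). Mir135b is at chromosome 1, 132198088 to 132198184, plus strand, in an intron of Lemd1 and of the overlapping gene AC124108.1, both on its strand. Mir135a-1 is at chromosome 9, 106154124 to 106154213, plus strand. It lies in an intron of the antisense RNA D030055H07Rik on its own strand and opposite an untranslated part of the last exon of Glyctk, a glycerate kinase gene. Mir135a-2 is at chromosome 10, 92072086 to 92072185, minus strand, in an intron of Rmst. The libraries measure small RNA, so the host transcripts themselves were not measured.

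The libraries held 7019469 and 5738209 same-strand counts on miRNA genes, out of 13739569 and 10685196 reads. In the tissue check, 5 of the 8 neural marker genes in the tables reached 10 counts in each library, led by Mir137 at 5025 and 5168 CPM (CPM scales each library to its same-strand total on genes). All 3 markers of axial position, Mir10a, Mir10b and Mir196b, were present, and together they held 370693 and 361391 CPM. The Mir124a copies, hallmark neuronal genes, had 0 to 31 counts each, a level that is read with the same caution about copies as Mir135a. Markers of other tissues were present too, at levels that overlapped those of the neural genes other than Mir137. Liver Mir122 stood at 118 and 30.7 CPM, red cell Mir451a at 45.2 and 20.4, leukocyte Mir223 at 156 and 124, and the muscle list of 3 genes at 119 and 378 CPM in all. The part of these other cells in the miR-135 levels was not tested.

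Of the reads assigned to 1 gene, Mir135b held the most in the family; reads that fit both Mir135a copies are not among them. It had 22647 counts in replicate 1 and 17892 in replicate 2, which is 3226 CPM (exact 95% Poisson interval 3184 to 3269) and 3118 CPM (3073 to 3164). The mean was 3172 ± 76.6 CPM (SD, n = 2), or 0.317% ± 0.0077 of all counts on miRNA genes. The libraries differed by little beside this level, and Mir135b ranked 45 and 46 among the 1973 genes.

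Mir135a-1 came next, with 1574 and 1453 counts. These are 224 CPM (213 to 236) and 253 CPM (240 to 267), a mean of 239 ± 20.5 CPM (SD, n = 2) at ranks 143 and 138. Mir135a-2 had 810 and 812 counts, or 115 CPM (108 to 124) and 142 CPM (132 to 152), a mean of 128 ± 18.5 CPM (SD, n = 2) at ranks 177 and 169. The order Mir135b, Mir135a-1, Mir135a-2 held in both libraries, and the values of the 3 genes did not overlap: the lowest Mir135a-1 value was above the highest Mir135a-2 value. The Poisson intervals cover counting error only, because PCR copies of a molecule were not marked and may be counted repeatedly. All 3 genes passed the minimum of 10 counts in each library, as did 371 of the 1973 genes, and none had a count on the opposite strand.

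**Figure D2:**
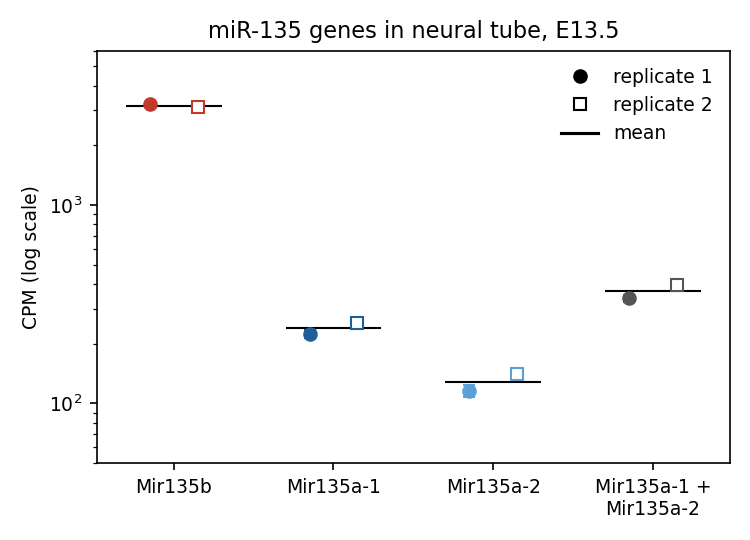
CPM of each miR-135 gene and of the summed Mir135a genes (y axis, log scale) in replicate 1 (filled circles) and replicate 2 (open squares), with exact 95% Poisson intervals as bars, some smaller than the symbols, and the mean as a line. Mir135b sits at 3226 and 3118 CPM and the summed Mir135a genes at 340 and 395 CPM.

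**Figure D3:**
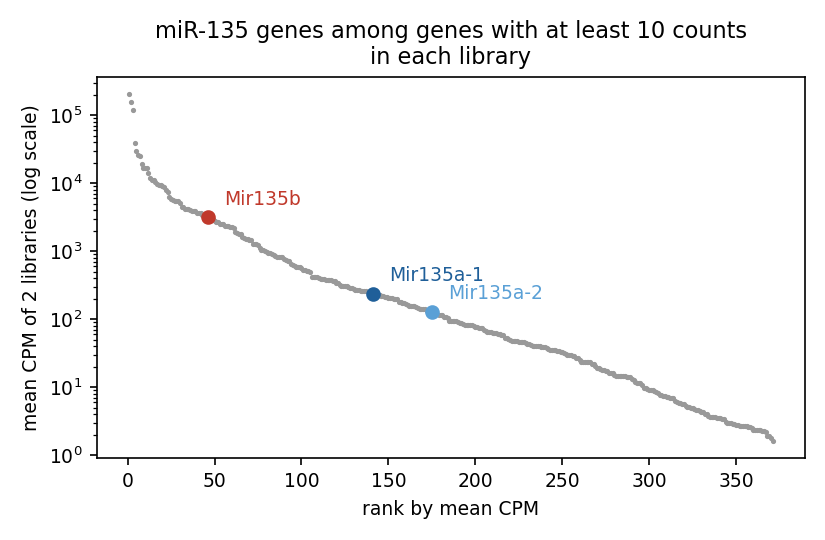
Mean CPM (y axis, log scale) against rank (x axis) for the 371 genes that passed the count minimum (grey points). The coloured points mark Mir135b at rank 46, Mir135a-1 at rank 141 and Mir135a-2 at rank 175 by mean CPM.

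Together the 3 genes held 3566 and 3513 CPM, a mean of 3539 ± 37.6 CPM (SD, n = 2). Mir135b made up 90.5% of this sum in replicate 1 and 88.8% in replicate 2, Mir135a-1 6.29% and 7.21%, and Mir135a-2 3.24% and 4.03%. The counts assigned to the family, which leave out reads that fit both Mir135a copies, thus came mostly from the gene in Lemd1.

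The question set by the copy number is how Mir135b compares with the sum of the Mir135a copies. In counted reads Mir135b was higher by a log2 ratio of 3.25 in replicate 1 (exact 95% counting interval 3.19 to 3.31) and 2.98 in replicate 2 (2.92 to 3.05). The mean was 3.11 ± 0.19 (SD, n = 2), or 8.66-fold. Against the copies one by one, Mir135b was 13.3-fold higher than Mir135a-1 (log2 ratio 3.73 ± 0.16) and 24.8-fold higher than Mir135a-2 (4.63 ± 0.24).

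These ratios cover reads assigned to 1 gene. The deposited tables list reads that mapped to several places as a class of their own, 28.5% of all reads in replicate 1 and 31.0% in replicate 2, and the totals of the tables leave no room for them in any gene's count. A full-length miR-135a-5p read matches both copies, whereas the aligned stretch of Mir135b is unlike them at 1 base. How many miR-135a-5p reads are in that class was not measured. Mir135b exceeded the Mir135a sum by 20263 counts in replicate 1 and by 15627 in replicate 2, which equals 0.517% and 0.472% of the reads that mapped to several places. A lower level of the Mir135a copies and a loss of their shared reads cannot be told apart in these tables, and neither can the 5p and 3p arms, because counts are given per gene.

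Between the copies, Mir135a-1 had more counted reads than Mir135a-2 in both libraries. The log2 ratio was 0.96 (0.84 to 1.08) in replicate 1 and 0.84 (0.71 to 0.97) in replicate 2. The mean was 0.90 ± 0.084 (SD, n = 2), or 1.86-fold. Reads that fit both copies are in neither count, so this ratio covers only reads that tell the copies apart.

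The miR-135 genes differed little between the libraries. Scaled by TMM (trimmed mean of M-values, which sets library sizes so that most genes do not differ), Mir135b had a log2 difference of -0.10 (replicate 2 minus replicate 1; exact 95% counting interval -0.13 to -0.075). Mir135a-1 had 0.12 (0.017 to 0.22) and Mir135a-2 0.24 (0.098 to 0.38). A difference of 0.5 or more was reached by 0 of the 3 genes, against a background of 14.3% (53 of 371 genes), and 3 genes are too few to read this as particular to the family. The median absolute difference over all 371 genes was 0.20. The differences of Mir135b and Mir135a-1 were below that median and that of Mir135a-2 was above it, with 58.8% of genes differing by less. With 1 library on each side, these differences have no replicate check.

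**Figure D4:**
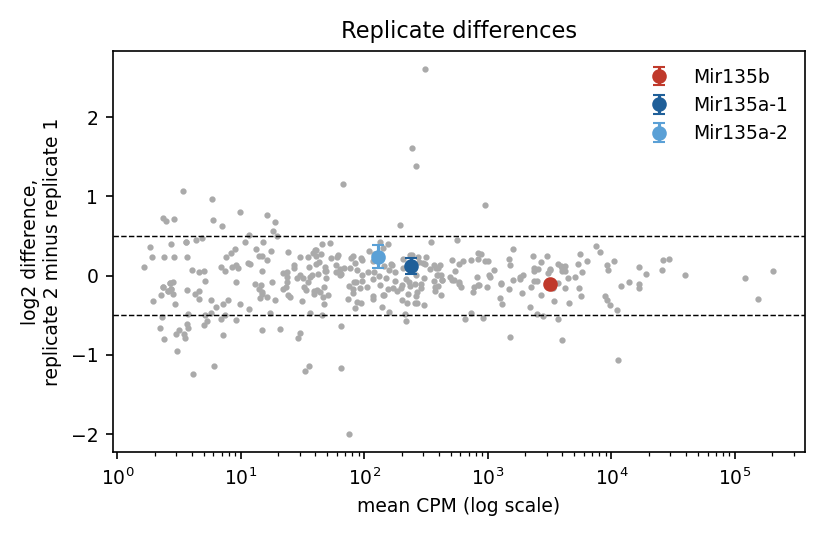
Log2 difference of replicate 2 minus replicate 1 (y axis) against mean CPM (x axis, log scale) for the 371 genes that passed the count minimum; coloured points are the miR-135 genes with exact 95% counting intervals, and dashed lines mark 0.5 and -0.5. All 3 miR-135 genes lie between the dashed lines.

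Within 100 kb of the miR-135 genes the tables held 2 other miRNA genes, both on the same strand as their neighbour. Mirlet7g, a let-7 gene in Wdr82, lies 24.6 kb from Mir135a-1 and stood at 26816 and 32094 CPM, 123-fold above it. Mir1251 lies 65.0 kb from Mir135a-2 within Rmst, outside its annotated exons, and stood at 92.9 and 97.2 CPM. The pair within Rmst was close in counted reads: Mir135a-2 was above Mir1251 by a log2 ratio of 0.31 in replicate 1 and 0.54 in replicate 2. The mean was 0.43 ± 0.16 (SD, n = 2) or 1.34-fold. Reads that fit both Mir135a copies are not counted, so the comparisons of Mir135a-1 and Mir135a-2 with these neighbours leave them out. No miRNA gene of the tables lay within 100 kb of Mir135b.

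The genes nearest in level over the 2 libraries, by Euclidean distance of log2(CPM + 0.5), place the family among others of this tissue. For Mir135b they were Mirlet7d (distance 0.13; 3190 ± 202 CPM), Mir18 (0.13; 3154 ± 204) and Mir296 (0.13; 3043 ± 138). For Mir135a-1 they were Mir665 (0.10), Mir3071 (0.12) and Mir7-1 (0.16), at means of 229 to 243 CPM. For Mir135a-2 they were Mir32 (0.13), Mir302a (0.15) and Mir503 (0.17), at means of 118 to 133 CPM. A likeness over 2 libraries is one of level only, and for the Mir135a copies the level leaves out reads that fit both.

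The contrast of 1 paralog with 2 copies was set beside other families of the same make-up. Of the 7 families listed, 6 had all their genes in the tables, and miR-219 is not analysed here because Mir219b was not matched. In all 6 of these, miR-135 included, the gene with 1 copy exceeded the sum of the copies in both libraries. Reads that fit more than 1 gene are in no gene's count, so each sum leaves out the reads that its copies share. The 6 of 6 therefore describes counted reads and is no support for the miR-135 contrast. The list took families named like miR-135 and is not complete. In miR-7, added after its values were seen, the order was the opposite: Mir7b had 2099 and 1602 counts against 2725 and 2328 on Mir7-1 and Mir7-2 together (log2 ratio -0.46 ± 0.11, SD, n = 2). The ratio was widest for miR-26, with Mir26b at 10548 ± 1221 CPM and its copies at 16.8 ± 0.83 CPM together (log2 ratio 9.28 ± 0.24). For miR-135 it was 3.11 ± 0.19, for miR-199 2.90 ± 0.061, for miR-196 2.26 ± 0.38 and for miR-92 0.98 ± 0.11 (SD, n = 2 each). No ratio was formed for miR-133, whose copies had 0 counts in each library while Mir133b had 7 and 29. The 7 counts in replicate 1 are below the minimum of 10. In each of the 5 families with a ratio, the copies shared a run of at least 22 nt, of 24 nt in miR-135 and 22 to 27 nt in the others. The longest run common to the 1-copy gene and a copy was 10 to 14 nt in these families, apart from 28 nt in miR-199. The order of the ratios was not tested against these runs.

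**Figure D5:**
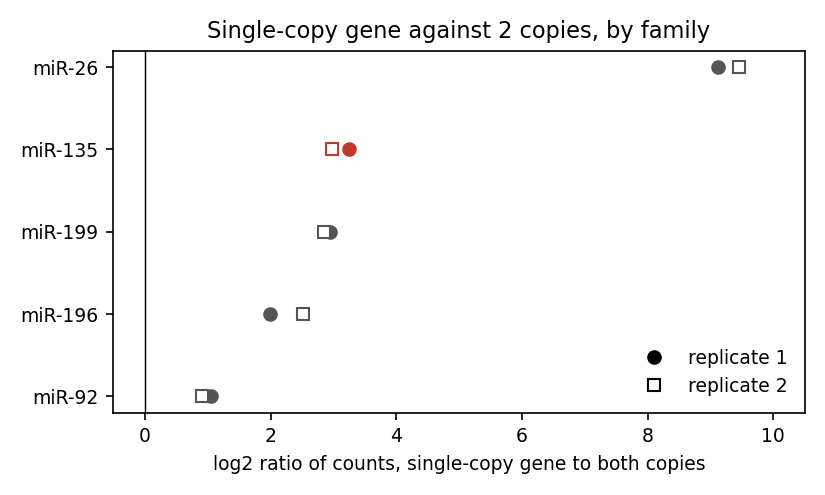
Log2 ratio of counts of the 1-copy gene to the sum of its 2 copies (x axis) in replicate 1 (filled circles) and replicate 2 (open squares) for 5 families (y axis); miR-135 is in red, and miR-133 is left out because its copies had 0 counts. All points drawn lie to the right of 0, and miR-135 lies at 3.25 and 2.98, between miR-26 and miR-199. The added family miR-7, with log2 ratios of -0.38 and -0.54, is not drawn and would lie to the left of 0.

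The hairpins also differed in base composition and in their computed fold. G and C made up 53.6% of the Mir135b hairpin, 46.7% of Mir135a-1 and 33% of Mir135a-2. The minimum free energy from RNAfold at 37 °C was -0.50 kcal/mol per base for Mir135b, -0.48 for Mir135a-1 and -0.35 for Mir135a-2, beside a median of -0.41 over the 1005 hairpins. Mir135b was thus more stable per base than 84.3% of hairpins, Mir135a-1 than 80.2% and Mir135a-2 than 26.5%. The order of computed stability was that of the CPM values, which for the Mir135a copies leave out reads that fit both. It is an order over 3 genes and has no test.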

How the data were processed

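The deposited values are raw read counts per gene. Per the file headers, the authors used genome build mm10 and annotation M4. The aligner is not given in the sources used here. In a table, 3 count columns add up to the same read total; the second was taken as the same-strand count, inferred from the values. Reads unmapped, mapped to several places or in no gene were left out. CPM was computed from the same-strand total over gene rows. Names and places came from GENCODE M21 (1894 of 1973 identifiers matched without version), sequences from RefSeq GRCm38.p6. The miR-135 genes, lists and rules were chosen with earlier results of these data known. Genes were named as members, miRNA genes within 100 kb, the 3 genes nearest in level, the families of 2 copies and 1 paralog, and tissue markers.

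Within-library ratios are log2 of counts plus 0.5. Replicate differences used TMM factors from edgeR 4.0.16 (R 4.3.3), a pseudocount of 0.5 and a minimum of 10 counts in each library. Their calculation was tested on simulated data with known changes, which checks the calculation and not the values given here. Intervals are exact (Poisson, or Clopper-Pearson for ratios). Folds used ViennaRNA 2.7.2 (RNAfold); other steps Python 3.11.15, scipy 1.17.1 and Biopython 1.88. Alternatives included the unstranded column, other totals, DESeq2 1.42.0 size factors, pseudocounts, count minimums and each replicate left out.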

Additional observations from a re-analysis of the deposited data

Results flagged for a closer look

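A signal outside the gene counts is the class of reads that mapped to several places, which the comparisons above do not use. It held 3921182 reads in replicate 1 and 3310889 in replicate 2. For each read counted on Mir135a-1 or Mir135a-2 there were 1645 such reads in replicate 1 and 1462 in replicate 2. The tables do not say which genes these reads match, and their part in the Mir135a levels was not tested.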

How the results depend on the processing

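The direction of both ratios held under each alternative run, but most of these runs could hardly have reversed it. The miR-135 genes had no opposite-strand counts, and the pseudocounts are small beside their counts. No run took in the reads that mapped to several places. With Mir10a, the most abundant gene, left out of the total, the levels were 300.3 CPM for Mir135a-1, 162 for Mir135a-2 and 3988 for Mir135b, since the total is smaller. The log2 ratio of Mir135b was 3.73 to the higher Mir135a gene and 4.11 to the mean of the copies, both necessarily above that to their sum. With 1 library left out at a time, that to their sum ranged from 2.98 to 3.25, and that of Mir135a-2 to Mir135a-1 from -0.96 to -0.84. The levels then ranged from 224 to 253 CPM (Mir135a-1), 115 to 142 (Mir135a-2) and 3118 to 3226 (Mir135b). Scaled by total counts, the replicate difference of Mir135b was -0.049. Genes past 0.5 numbered 201 of 589 with a minimum of 1 count and 22 of 273 with 100, because fewer or more genes of low counts enter. No paired analysis was possible because there is only 1 group. With 2 libraries of 1 condition, the SD is a rough guide to precision.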
